A study of Mus musculus with 6 samples.

Results

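The Ly6 superfamily genes described here are Ly6d, Ly6e, Lynx1 and Ly6c1, identified by their gene symbols in the platform annotation. They are 4 of 16593 genes named on the array and have 6 of its 25697 probes. Each array measured total RNA of hematopoietic stem and progenitor cells from C57Bl/6 bone marrow, isolated as L-S+K+ cells, that is, without lineage markers and with the antigens Sca-1 and Kit on the surface. VPA cultures (n = 3) were kept for 24 h with 1 mM valproic acid, an inhibitor of histone deacetylases, and control cultures (n = 3) for 24 h with growth factors alone. Serum from fetal calves, GM-CSF (a growth factor of granulocytes and macrophages) and SCF (the ligand of Kit) were in both kinds of culture. The submitters describe the replicates as independent and biological, and the labels do not say how many animals gave cells to each. The gene of Sca-1, Ly6a, belongs to the same superfamily and was not analysed here. The comparison asks which of its relatives differed after a day with the inhibitor.

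Proteins of the Ly6 superfamily are small and share a fold in which several loops extend from a core held together by disulphide bonds. Most are tied to the outer face of the cell membrane by a glycosylphosphatidylinositol (GPI) anchor, and some are secreted. In mice many of the genes lie side by side in one cluster on chromosome 15, and several of their products serve as surface markers of blood cells. Ly6d marks lymphoid progenitors that turn to the B lineage, Ly6C, the antigen encoded by Ly6c1 and its paralog Ly6c2, marks monocytes among other cells, Ly6e is induced by interferon, and Lynx1 binds nicotinic acetylcholine receptors in the brain.

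Of the 4 members only Ly6c1 has an upstream sequence in the RefSeq table used here. It is shown beside that of its paralog Ly6c2, which has no named probe on this array. Each window is the 250 bases before a transcription start, on the minus strand of GRCm38.p6, at chr15:75048838-75049087 for Ly6c1 and chr15:75111972-75112221 for Ly6c2. RefSeq gave 2 such windows for each gene. The pair with the most identical aligned bases is shown, and the alignment, the shared run and the motif counts of both genes are of this pair. The capitals mark the longest run of bases common to both, which is 20 bases long.
Ly6c1: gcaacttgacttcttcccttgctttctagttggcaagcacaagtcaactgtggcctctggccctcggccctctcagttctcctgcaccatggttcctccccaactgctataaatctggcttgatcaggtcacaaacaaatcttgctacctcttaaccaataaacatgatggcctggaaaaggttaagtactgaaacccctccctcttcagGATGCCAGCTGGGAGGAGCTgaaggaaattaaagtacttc
Ly6c2: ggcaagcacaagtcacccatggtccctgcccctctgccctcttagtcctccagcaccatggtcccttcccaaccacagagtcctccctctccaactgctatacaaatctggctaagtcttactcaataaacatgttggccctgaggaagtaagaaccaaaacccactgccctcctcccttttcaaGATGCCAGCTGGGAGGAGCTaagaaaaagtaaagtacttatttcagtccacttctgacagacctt
In a global alignment 164 of 284 columns held the same base. The TATA-box letters TATAAA were found once in the Ly6c1 window and 0 times in that of Ly6c2, searched on both strands. Of 32851 RefSeq windows of this length 12.4% held them. In the Ly6c1 window they lie nearer the far end than the transcription start, and whether they act as a TATA box was not tested. The letters TTCNNNGAA, a form bound by STAT factors, were in neither window, searched in the same way, and in 7.02% of all windows. These windows lie before the transcription start and give no measure of how alike the transcripts are. The sequence of the array's probes was not used here, so whether the Ly6c1 probe also takes up Ly6c2 transcripts is unknown.

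With VPA none of the 4 members passed the threshold of adjusted p 0.05 by limma, where 3.73% of 7967 genes did (3.41% higher, 0.314% lower). After normalization Ly6e and Lynx1 lay higher on all 3 VPA arrays than on all 3 control arrays, by 1.34-fold and 1.65-fold. As raw signals the groups overlapped for both. Ly6d lay lower on average, at a log2 change of -0.62, and Ly6c1 differed by -0.19, both with groups that overlapped. At an unadjusted p under 0.05, 2 of 4 members were higher and 0 lower, against 11.5% and 5.59% of all genes. Of these, Lynx1 met the detection filter through its VPA arrays, so its place in this count says nothing of the members as a set. Groups did not overlap for 2 of 4 members and for 27.9% of all genes.

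The arrays differed in brightness. Between 10846 and 11439 probes were detected on each, and the median raw signal of the 11115 probes kept for the tests was 3.93 to 4.82 times the median of undetected probes on 5 arrays. On VPA replicate 1 it was 2.37 times that background, although this array had the most detected probes, 11439. Probes could be detected there at a lower multiple of background. The second Ly6d probe was detected on it at 1.12 times, and was not on control replicate 3 at 1.24 times. The normalized values of VPA replicate 1 correlated with those of the other 2 VPA arrays at r = 0.957 and r = 0.947 across probes. Control pairs reached 0.989 to 0.992. Of 9 genes listed as markers of stem and progenitor cells 8 were named on the array and all 8 were measured, among them Cd34, Gata2, Meis1 and Spi1, and 0 of them passed the threshold. Of 6 T cell markers 5 were named and 4 of these were detected on no array.

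**Figure D1:**
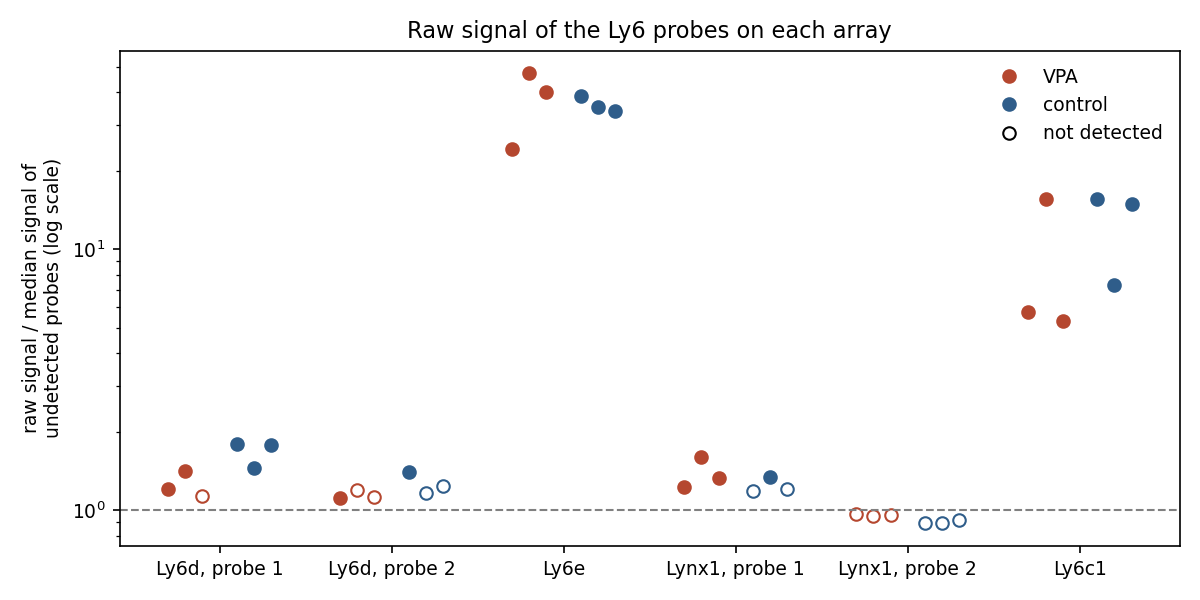
Raw signal of each of the 6 Ly6 probes on each array, divided by the median signal of that array's undetected probes, on a log axis with a dashed line at 1. Each point is 1 array, VPA left of control, and open points were not detected; Ly6e and Ly6c1 stood at least 5.33 times above background on every array, whereas all probes of Ly6d and Lynx1 stayed at or under 1.80 times.

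Ly6e was higher on each VPA array than on each control array, by 1.34-fold, without passing the threshold. The Ly6e protein, also known as thymic shared antigen, is found on immature thymocytes and many other cells. Its probe gave raw signals of 2301, 4988 and 4643 on VPA replicates 1 to 3, and of 5171, 3924 and 4229 on control replicates 1 to 3, and was detected on all 6 arrays. The lowest of these was on the dim array, and as raw signals the groups overlapped.

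After background correction and quantile normalization the log2 signal of Ly6e was 12.10, 12.29 and 12.30 on the VPA arrays, and 11.87, 11.84 and 11.71 on the control arrays. The lowest VPA array lay above the highest control array. The means were 12.23 ± 0.11 with VPA and 11.81 ± 0.09 in control (SD, n = 3 each). The log2 change was 0.42 ± 0.14 (SE), with a 95% interval of 0.08 to 0.76, which is 1.06-fold to 1.69-fold. Its unadjusted p was 0.0213 and its adjusted p by limma 0.197. The SD within groups, 0.10 on the log2 scale, was under the median of 0.24 over all genes. The difference shrank to 0.14 when arrays were scaled to the median of all probes. That scaling moved the median log2 change of all genes to -0.29, whereas it was -0.02 with quantile normalization.

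Lynx1 was measured near the limit of detection. Lynx1 is a GPI-anchored protein of neurons that dampens signalling through nicotinic receptors. Its first probe gave raw signals of 117, 169 and 154 on VPA replicates 1 to 3, and of 159, 149 and 150 on the controls. These stood 1.23 to 1.60 times above background with VPA and 1.19 to 1.34 times in control. By either measure the groups overlapped. The probe was detected on 3 of 3 VPA arrays and on 1 of 3 control arrays, so it entered the test mainly through the VPA group. Its second probe was detected on 0 of 6 arrays, with raw signals of 91.8 to 111 with VPA and 99.7 to 120 in control, all below the background median.

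The normalized log2 signal of the first Lynx1 probe was 6.30, 6.24 and 5.71 with VPA, and 5.17, 5.65 and 5.26 in control. The highest of these belonged to VPA replicate 1, the dim array, where the raw signal of the probe was lowest. VPA replicate 3 and control replicate 2 were the nearest pair, at 5.71 with VPA and 5.65 in control. The log2 change was 0.72 ± 0.22 (SE), with a 95% interval of 0.21 to 1.23, and its adjusted p was 0.152 (unadjusted p = 0.0119). Without background correction the log2 change was 0.25 and in the deposited log2 values 0.24. Of 16 nicotinic receptor subunits on the array 13 were detected on no array and 3 were measured, Chrna9, Chrnb1 and Chrne. None of these 3 passed the threshold or an unadjusted p under 0.05. The largest differences were those of Chrnb1, at a log2 change of 0.32 ± 0.19, and Chrne, at -0.21 ± 0.20.

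**Figure D2:**
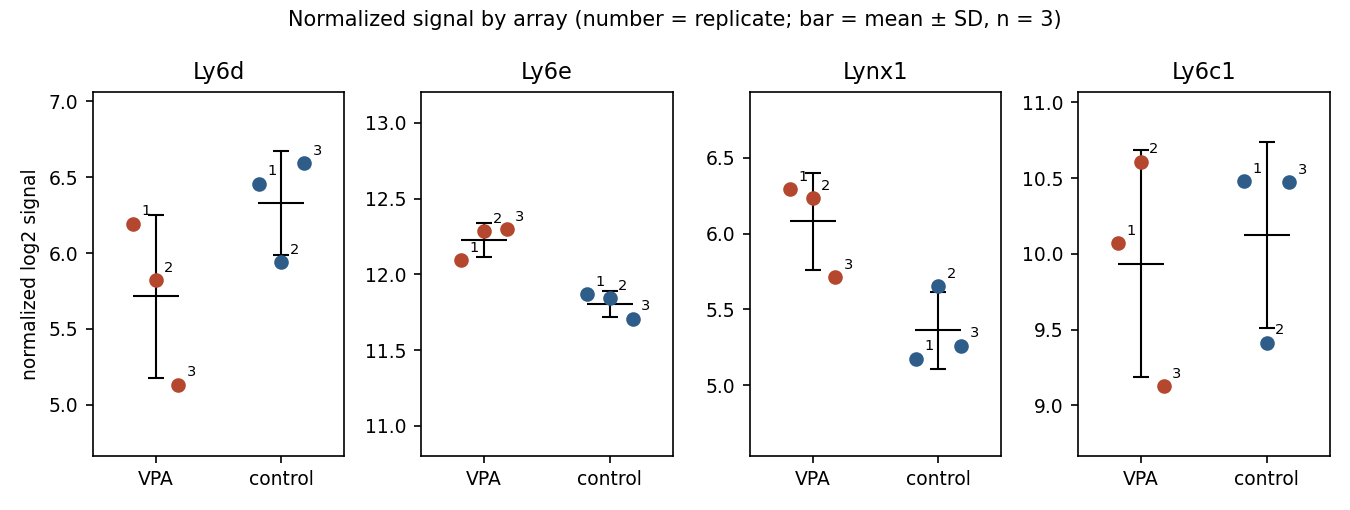
Normalized log2 signal of the kept probe of each member, VPA left of control, with 1 point per array numbered by replicate and bars for the mean ± SD (n = 3); each panel spans the same range of log2 units. Ly6e and Lynx1 separate the groups, whereas Ly6d and Ly6c1 overlap, with VPA replicate 3 and control replicate 2 lowest in their groups for both.

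Ly6d was also near the limit of detection. Its first probe gave raw signals of 115, 149 and 132 on VPA replicates 1 to 3, and of 241, 162 and 222 on the controls. It was detected on 2 of 3 VPA arrays and on 3 of 3 control arrays, and VPA replicate 3 was the array that missed it. The second probe was detected on 1 of 3 arrays in each group and was left out of the test by the detection filter.

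As normalized log2 signals the first Ly6d probe had 6.19, 5.82 and 5.13 with VPA, and 6.46, 5.94 and 6.59 in control. VPA replicate 1 lay above control replicate 2, so the groups overlapped. The log2 change of -0.62 ± 0.30 (SE) had a 95% interval of -1.32 to 0.09, and its adjusted p was 0.352 (unadjusted p = 0.0772). The interval includes no difference and a value as low as 0.401 of control. With VPA replicate 3 left out the log2 change was -0.32, and with VPA replicate 1 left out it was -0.85. The second probe, fitted without a detection filter, had a log2 change of -0.09 ± 0.20 and an adjusted p of 0.903.

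Genes of the lymphoid program that Ly6d is known to mark were read beside it. Of 18 listed genes 15 were named on the array and 6 measured, and 0 passed higher and 2 lower with VPA, against 3.41% and 0.314% of all genes. The median log2 change of the 6 was -0.69, against -0.02 over all genes. Dntt, the terminal deoxynucleotidyl transferase, had log2 signals of 5.08, 5.64 and 5.57 with VPA, and of 8.15, 7.35 and 7.72 in control, and fell by 2.31 ± 0.25 (adjusted p = 0.00524), with detection on 1 of 3 VPA arrays. Il7r, a receptor chain of lymphoid precursors, was detected on 0 of 3 VPA arrays and 3 of 3 control arrays. Its signal with VPA was lower by at least 2.99-fold (adjusted p = 0.00108). That bound sets the control mean against the lowest detected signal of each VPA array or the probe's own, whichever is higher. Il7r entered the test through the control arrays alone, so it could be called in no other direction. Dntt also met the detection filter through its control arrays. The count of 2 and the median include both genes, so neither value says anything of the lymphoid genes as a set. Vpreb1, part of the surrogate light chain of B cell precursors, had a log2 change of -0.99 ± 0.38 (adjusted p = 0.239), which was -0.63 without VPA replicate 1 and -0.39 without background correction. The B cell genes Pax5 and Ms4a1 were detected on no array and Cd79a on 2. The raw signals of Vpreb1 and Cd79b, the 2 measured of 5 named B cell markers, summed to 414 to 881 with VPA and to 941 to 1358 in control. Such sums carry the brightness of the arrays: those of the 8 stem and progenitor markers, whose median log2 change was 0.02, were also apart, at 5498 to 12473 with VPA and 12956 to 16658 in control. The part of B lineage cells in the Ly6d values was not tested, and in bulk RNA fewer cells of a type and less RNA per cell cannot be told apart.

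Ly6c1 was well above background and differed more between replicates than between groups. Its raw signals were 545, 1646 and 619 on VPA replicates 1 to 3, and 2082, 817 and 1849 on the controls, with detection on all 6 arrays. After normalization they were 10.07, 10.61 and 9.13 with VPA, and 10.48, 9.41 and 10.47 in control, on the log2 scale. VPA replicate 2 was the highest of the 6 arrays and VPA replicate 3 the lowest. The highest and lowest arrays within a group were 2.79-fold apart with VPA and 2.10-fold apart in control. The SD within groups was 0.69, higher than or equal to that of 97.7% of 7967 genes, and the control SD alone ranked at 99.5%.

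The log2 change of Ly6c1 was -0.19 ± 0.43 (SE), with an adjusted p of 0.839. Its 95% interval of -1.19 to 0.82 spans 0.437 to 1.77 times the control level, so these arrays leave a change of about that size in either direction undetected. The sign depended on the arrays used: the log2 change was 0.22 without VPA replicate 3 and -0.52 without VPA replicate 2. With array weights it was 0.51.

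The arrays on which Ly6c1 was lowest within each group were also the lowest for genes of neutrophil granules. VPA replicate 3 and control replicate 2 were the lowest arrays of their groups for Ly6c1, for Ly6d and for all 7 listed neutrophil genes. Those 7 were Elane, Mpo, Prtn3, Ctsg, Camp, Ngp and Ltf. This pattern of lowest arrays was held by 11.2% of 7967 genes. The order of the other arrays differed among the neutrophil genes. Elane, the neutrophil elastase, had log2 signals of 11.80, 12.18 and 11.10 with VPA, and of 12.12, 11.29 and 12.57 in control. The hemoglobin gene Hba-a1 had 9.33, 10.20 and 6.38 with VPA, and 8.34, 6.37 and 10.49 in control. This was a wider spread with the same lowest arrays, whereas the other 2 measured erythroid markers, Klf1 and Epor, did not hold this pattern. Of the 8 measured stem and progenitor markers 0 held this pattern, and of 5 other Ly6 superfamily genes 0. Of 14 other measured genes for GPI-anchored proteins 5 did, among them Thy1. So did Ly86, 1 of 2 measured monocyte markers, and Cd79b, 1 of 2 measured B cell markers. It was also held by Cpa3, 1 of 4 measured mast cell and basophil markers, and Plvap, 1 of 4 endothelial markers. Of 3 measured megakaryocyte markers 0 held it. The summed raw signal of the 7 neutrophil genes, not normalized, ranged from 16483 to 38655 with VPA and from 38522 to 63718 in control. By group, 0 of these 7 passed the threshold and 4 had an unadjusted p under 0.05, all lower, against 5.59% of all genes. The largest differences were those of Camp, at a log2 change of -1.37 ± 0.38, and Ngp, at -1.34 ± 0.40. The part of cells with granule or red cell transcripts in the Ly6c1 values was not tested.

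**Figure D3:**
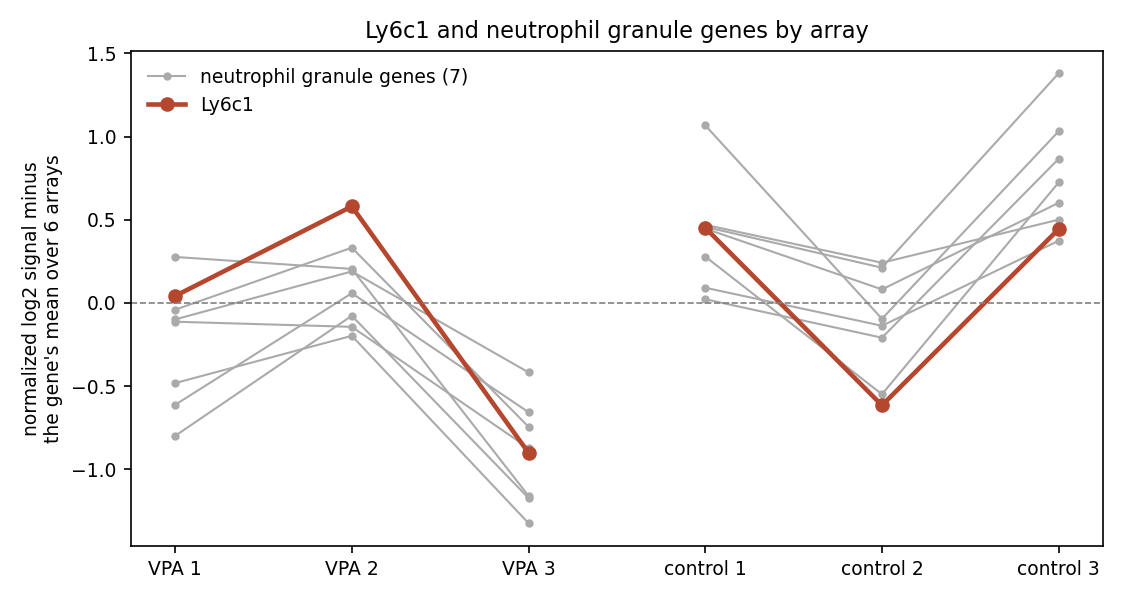
Normalized log2 signal of Ly6c1 (red) and of 7 neutrophil granule genes (grey) on each array, minus the gene's mean over the 6 arrays; lines join the values of 1 gene within a group and imply no order of replicates. VPA 3 and control 2 are the low arrays of their groups for all 8 genes.

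Monocyte markers were read beside Ly6c1 because Ly6C is a monocyte antigen. Of 7 listed genes 6 were named, and 2 were measured, Irf8, a transcription factor of monocytes and dendritic cells, and Ly86. Ccr2 was detected on no array, Ms4a6c and F13a1 on 1 each and Cd14 on 2. Irf8 had a log2 change of -1.08 ± 0.37 (adjusted p = 0.200) and Ly86 one of -0.90 ± 0.37 (adjusted p = 0.279). Ly86 shared the lowest arrays of Ly6c1 in both groups, and Irf8 did not. With VPA replicate 1 left out the log2 change of Irf8 was -0.61, near the threshold (adjusted p = 0.0472, or 0.0510 with that array removed before normalization). With array weights it passed, at -0.57 (adjusted p = 0.0109). The raw signals of both, not normalized, summed to 326 to 1109 with VPA and to 1412 to 2129 in control, groups that were apart as those of the stem and progenitor markers were. Their part in the Ly6c1 values was not tested.

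The rest of the superfamily was mostly undetected. Of 42 further genes 32 had a named probe, and 27 of their 35 probes were detected on no array, among them the only probes of Ly6f, Ly6i, Ly6k and Ly6m, which lie in the same cluster as the members. Another 3 probes were detected on 1 array only, those of Psca and Tex101 in control and 1 of 3 of Ly6h with VPA. The 5 genes measured were Cd59a, Cd59b, Plaur, Lypd6b and Ly6g5c, and of these 1 passed higher with VPA and 0 lower, against 3.41% and 0.314% of all genes, while 3 were higher at an unadjusted p under 0.05, against 11.5%. Their median log2 change was 0.61. The count of 3 and the median include Lypd6b, which was detected on 0 of 3 control arrays and could be called in no other direction. The median also includes Ly6g5c, which met the detection filter through its VPA arrays. So neither value says anything of the family as a set.

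Cd59a, which shields cells from the membrane attack complex of complement, had log2 signals of 10.21, 9.53 and 9.69 with VPA, and of 8.81, 8.89 and 8.63 in control. All VPA arrays lay above all control arrays. Cd59a rose 2.05-fold (log2 change 1.03 ± 0.21, adjusted p = 0.0437). As raw signals, 600, 842 and 861 with VPA and 754, 595 and 589 in control, the groups overlapped. The highest normalized value was that of VPA replicate 1, the dim array. Without that array the log2 change was 0.83 (adjusted p = 0.0123). The call was close to the threshold and ended without VPA replicate 2 or 3 or any 1 control array, without a detection filter, with scaling to the median of all probes and with a replicate block, with adjusted p up to 0.190. The log2 change stayed between 0.70 and 1.17 in all 18 alternatives.

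Its paralog Cd59b differed by 0.61 ± 0.19 (adjusted p = 0.154) on its first probe, and its second probe was detected on no array. How far the Cd59 probes tell these paralogs apart was not tested. Lypd6b was detected on 3 of 3 VPA arrays and 0 of 3 control arrays, where its detection p was 0.0501 to 0.0652. On VPA replicate 1 it was detected at a raw signal of 114, the lowest of the 6 arrays. After background correction its VPA mean exceeded the control bound by at least 1.53-fold, with an adjusted p of 0.0550. The log2 change was 0.23 without background correction and 0.23 in the deposited log2 values, so the size depends on that correction. Raw signals of 114, 175 and 171 with VPA and of 174, 146 and 164 in control overlapped. Lypd6b passed the threshold in 6 of 17 alternatives, among them without VPA replicate 1 (adjusted p = 0.0199). As it was undetected in control, only a rise could have brought it into the test. Ly6g5c, detected on 3 VPA arrays and 1 control array, differed by 0.52 ± 0.24 (adjusted p = 0.322). Plaur, the urokinase receptor, differed by -0.38 ± 0.37 (adjusted p = 0.620) and by 0.08 without VPA replicate 1.

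**Figure D4:**
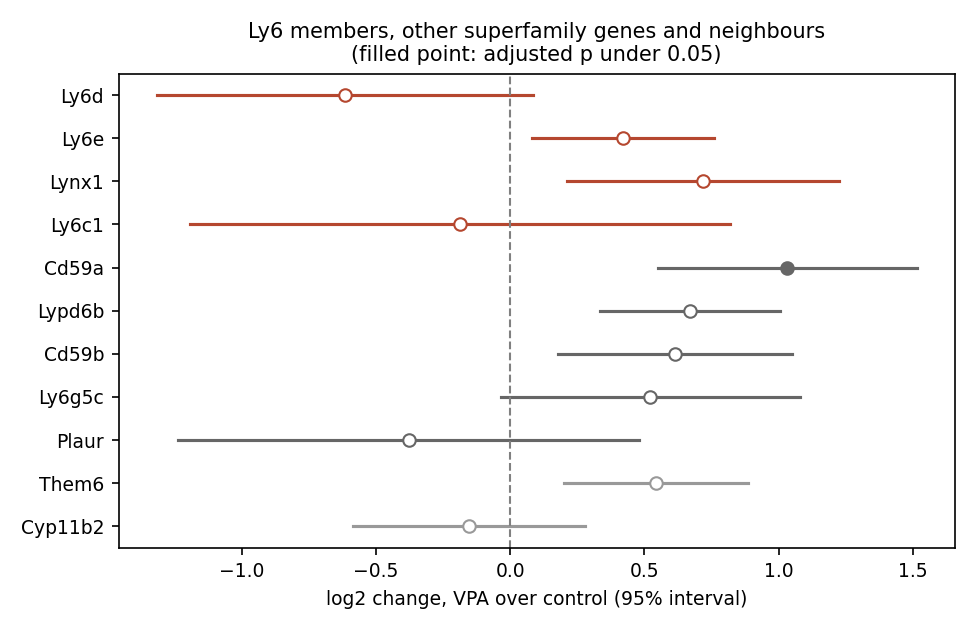
Log2 change, VPA over control, with its 95% interval from limma for the 4 members (red), the 5 other measured superfamily genes (dark grey) and the 2 measured neighbours of the members on chromosome 15 (light grey). The filled point, Cd59a, passed adjusted p 0.05; the intervals of Ly6d and Ly6c1 cross 0 and those of Ly6e and Lynx1 do not.

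On chromosome 15 the members sit among genes that were for the most part not measured. From 10 protein-coding genes before Lynx1 to 10 after Ly6c1, in the order of the RefSeq annotation, there are 29 further genes, 15 of them with a named probe. Of these 15, 11 were detected on no array and 2 were measured. Them6, 4 genes before Lynx1, had a log2 change of 0.54 ± 0.15 (adjusted p = 0.115), with the VPA arrays above the control arrays. Cyp11b2, whose product makes aldosterone in the adrenal gland, lies between Ly6d and Ly6e and had a log2 change of -0.15 ± 0.18 (adjusted p = 0.689). The call of Them6 depended on processing, since 6 of 18 alternatives called it. Among them were the one without VPA replicate 1 (adjusted p = 0.0233) and that with the deposited log2 values (0.0352). Them6 has 3 probes, and with its kept probes averaged the log2 change was 0.43 (adjusted p = 0.129).

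Other genes whose products carry a GPI anchor, as most Ly6 proteins do, included several of the larger rises. Of 34 listed 33 were named and 14 measured, and 7 of the 14 passed higher with VPA and 0 lower, against 3.41% and 0.314% of all genes. The median log2 change of the 14 was 0.68. The count of 7 and the median include Mmp17, detected on 0 of 3 control arrays, which could be called in no other direction. They also include Gpc3, which met the detection filter through its VPA arrays. The list was drawn up with earlier results known, and its top genes Gpc3 and Thy1 were among them. So neither value is independent evidence or says anything of these genes as a set. Gpc3, a glypican, was detected on 1 of 3 control arrays and rose by 3.91 ± 0.26 on the log2 scale (adjusted p = 0.000996). Thy1 rose 9.26-fold (3.21 ± 0.21, adjusted p = 0.000996). Gpc1, another glypican, rose 4.10-fold and Prnp, the prion protein, 4.07-fold (adjusted p = 0.0162 and 0.00311). The count was 4 without VPA replicate 2 or control replicate 3 and 3 without control replicate 1 or 2.

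The enzymes that build and attach the anchor did not pass. Of 30 listed 24 were named and 18 measured, 0 passed the threshold in either direction, and an unadjusted p under 0.05 was reached by 2 upward and 1 downward (11.5% and 5.59% of all genes), with a median log2 change of 0.03. The largest differences were those of Dpm1, a subunit of the synthase that makes the mannose donor, at a log2 change of 0.73 ± 0.33 (adjusted p = 0.311), and Pigw, an acyltransferase of the pathway, at -0.48 ± 0.16 (adjusted p = 0.178).

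Ly6e was also read against interferon response genes. Of 32 listed 31 were named and 23 measured, and 0 passed the threshold, with an unadjusted p under 0.05 for 4 upward and 1 downward (11.5% and 5.59% of all genes) and a median log2 change of 0.09. The largest differences were those of Rsad2, which encodes viperin, at 0.78 ± 0.18 (adjusted p = 0.0733), and Dhx58, a sensor related to RIG-I, at 0.73 ± 0.27 (adjusted p = 0.229).

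Markers of other cells that the isolated fraction could hold were also counted. Of 5 erythroid markers 3 were measured and Epor passed higher, at least 1.45-fold, with detection on 0 of 3 control arrays, so that it could be called in no other direction. Of 5 mast cell and basophil markers 4 were measured and Cpa3 fell by 1.54 ± 0.19 (adjusted p = 0.00681). Of 5 megakaryocyte markers 3 were measured and of 6 endothelial markers 4, and 0 of either passed. Of all genes 3.41% passed higher and 0.314% lower. In the megakaryocyte list the largest differences were those of Pf4 (log2 change -0.22 ± 0.38) and Vwf (0.21 ± 0.18). In the endothelial list they were those of Emcn (0.87 ± 0.19) and Plvap (0.65 ± 0.28). Among the stem and progenitor markers they were those of Cd48 (-0.55 ± 0.29) and Runx1 (0.49 ± 0.17).

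The genes most like each member over the 6 arrays were taken from 7842 named genes by Pearson's r of normalized log2 signals, given as a description, since 6 arrays of 2 groups allow many high values. Ly6e was most like Gstt2 (r = 0.997), Agap1 (r = 0.994) and Adgrl1 (r = 0.989), and 55 genes exceeded r = 0.95. Gstt2, a glutathione transferase, differed by 0.51 ± 0.15 and Adgrl1, an adhesion receptor, passed the threshold at a log2 change of 0.95 ± 0.19 (adjusted p = 0.0417). Lynx1 was most like B9d1 (r = 0.985), Cgrrf1 (r = 0.982) and Tmem101 (r = 0.980). B9d1, a protein of the base of cilia, rose with VPA at a log2 change of 1.61 ± 0.30 (adjusted p = 0.0345). Ly6d was most like Cul2 (r = 0.992), Znrf2 (r = 0.984) and Gtf3a (r = 0.983), whose log2 changes lay between -0.25 and -0.11 and did not pass. Ly6c1 was most like H2bc14 (r = 0.987), Ccz1 (r = 0.962) and Khsrp (r = 0.958), the only 3 of the genes compared above r = 0.95. H2bc14 spanned 0.20 on the log2 scale over the 6 arrays, against 1.48 for Ly6c1, so the likeness is one of order and not of size.

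The log2 changes of the members were recomputed under 17 or 18 alternatives of the processing. Ly6d stayed below 0 and Ly6e and Lynx1 above 0 in each alternative that gave them a value. Array weights were the one alternative in which any member passed the threshold, with adjusted p = 0.0028 for Ly6e and 0.00242 for Lynx1. Under array weights 2493 genes were called in place of 297.

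**Figure D5:**
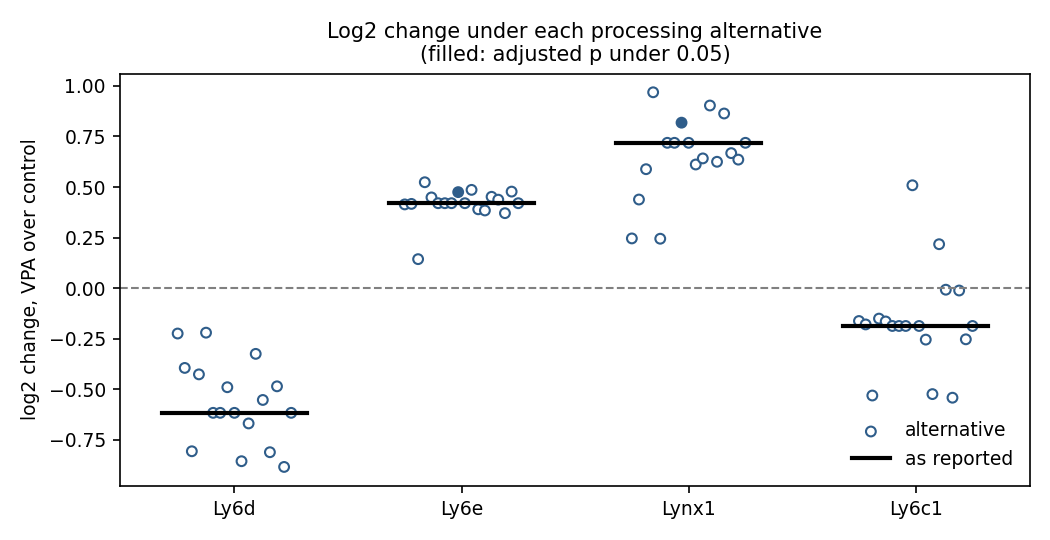
Log2 change, VPA over control, of each member under each processing alternative (circles) and as reported (black line). Filled circles had adjusted p under 0.05, which was the case for Ly6e and Lynx1 with array weights; Ly6c1 is the member whose circles lie on both sides of 0.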

How the data were processed

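Each probe of the Illumina arrays has an average intensity, not normalized, and a detection p-value in the deposited table, per the file headers. The authors' second table holds log2 values, with a median of 6.94, whose normalization is not given in the sources used here, and served as an alternative. The submitters' processing notes name GenomeStudio. RNA input was 100 ng, per the labels' protocols.

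Signals were processed with neqc in limma 3.58.1 (R 4.3.3; offset 16, quantile normalization, log2). Probes with detection p under 0.05 on at least 3 of 6 arrays were kept (11115, 43.3%). In the platform annotation 23978 probes had 1 symbol, 0 had several and 1719 had none. A gene is shown by its brightest kept probe. The groups were fitted with lmFit and eBayes on all kept probes, without a block, with Benjamini-Hochberg adjustment at 0.05. A two-sided exact permutation test of 3 against 3 arrays cannot go below 0.1. The procedure was tested on simulated signals. The number of arrays limits precision.

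Members and 15 gene lists were chosen with earlier results of these data known. Named genes are all members, up to 4 called genes per list (otherwise the 2 largest changes), and the 3 genes most like each member; other marker genes, among them Irf8, Vpreb1, Elane and Hba-a1, were named after their values were seen. Sequences are RefSeq's (GRCm38.p6), aligned with Biopython 1.88.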

Additional observations from a re-analysis of the deposited data

How the results depend on the processing

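With 3 arrays a group and signals of Ly6d and Lynx1 near background, sizes of these members depend on the background correction, and small changes could not be called. Of the 4 members, Ly6d kept its sign and did not pass the threshold in any of 17 alternatives (log2 change -0.88 to -0.22). Ly6e ranged from 0.14 to 0.52 and Lynx1 from 0.24 to 0.97, and both passed the threshold with array weights alone (0.47 and 0.82). Ly6c1 turned to 0.51 with array weights. Leaving out 1 array at a time gave -0.85 to -0.32 for Ly6d, 0.37 to 0.49 for Ly6e, 0.61 to 0.90 for Lynx1 and -0.54 to 0.22 for Ly6c1, the last above 0 without VPA replicate 3. Plaur turned to 0.12 with array weights, ranged from -0.63 to 0.082 with 1 array left out, and turned to 0.082 both without VPA replicate 1 and with that array kept out of the normalization as well (0.0824). The cause of these changes was not tested.

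The count of 297 genes called (272 higher, 25 lower) was 2493 with array weights (1365 and 1128), 131 with scaling to the median of all probes (111 and 20), 598 with VPA replicate 1 removed before normalization (476 and 122) and 60 to 622 with 1 array left out. It was 622 without VPA replicate 1, 135 without VPA replicate 2, and 60, 83 and 78 without control replicates 1, 2 and 3. A replicate block gave 191 (178 and 13). With the replicate block the call of Cd59a ended (adjusted p = 0.0624) and the members stayed uncalled. The block rests on a shared number only. Deviations of same-numbered arrays from their group means correlated at r = 0.128, -0.06 and 0.05, and those of unlike numbers at -0.113 to 0.150. With 3 arrays a group these values cannot tell whether same-numbered cultures were prepared together.

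Counts for the lists were recomputed in alternatives chosen after seeing the data. The 1 call among other Ly6 superfamily genes was 2 with array weights, with scaling to the median of kept probes, with probes averaged per gene and with VPA replicate 1 removed before normalization. It was 0 with the replicate block or with scaling to the median of all probes, and 0 to 2 with 1 array left out. The 7 calls among other GPI-anchored genes were 12 with array weights (11 higher, 1 lower), 4 with detection required on all arrays or scaling to the median of all probes, and 3 to 7 with 1 array left out. With detection on all 6 arrays Ly6d and Lynx1 could not be fitted, since their probes were left out.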
